A study of Homo sapiens with 6 samples.

Results

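The aryl hydrocarbon receptor gene AHR, its dimer partner ARNT, the receptor's repressor AHRR, its target TIPARP and the 3 enzymes of the cytochrome P450 family 1, CYP1B1, CYP1A1 and CYP1A2, were examined in mammary epithelial cells with and without reduction of the phosphatase SHP2. These 7 genes were chosen because CYP1B1 is among the genes with the largest difference between the groups, and the question was whether the receptor and its other targets followed. Of the 7 genes, 6 had a probe set that carried no other gene's symbol, out of 18377 genes measured in this way. The 1 probe set of AHRR also carried the symbol PDCD6, so AHRR was given no value. The difference of CYP1B1 from control chose the set, so it is given as a description without a test.

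AHR is a ligand-activated transcription factor of the bHLH-PAS family. It waits in the cytoplasm bound to HSP90 chaperones, binds planar aromatic compounds and some tryptophan metabolites, moves to the nucleus and pairs with ARNT. The pair binds DNA at the xenobiotic response element, whose core is GCGTG, and induces CYP1A1, CYP1A2, CYP1B1, AHRR and TIPARP. CYP1 enzymes oxidise polycyclic aromatic hydrocarbons, and CYP1B1, which is best known outside the liver, hydroxylates estradiol and can oxidise retinol. AHRR competes with AHR for ARNT, and TIPARP, a mono-ADP-ribosyltransferase, dampens AHR activity.

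The cells were MCF10A-HER2/3, derived from MCF10A, human mammary epithelial cells, and named for the receptors HER2 and HER3. They carried a doxycycline-inducible lentiviral construct for a control miR (CTRL miR) or for either of 2 miRs against SHP2 (SHP2 miR1 and SHP2 miR2), giving 3 groups of 2 arrays each. All groups, control included, were grown as three-dimensional cultures for 15 days with doxycycline, in medium with EGF, insulin, cholera toxin, hydrocortisone and horse serum. The labels do not say whether a group was 1 clone or a pool, or whether its replicates were separate cultures, so the p-values speak only of array-to-array spread, possibly technical. The deposited values are the authors' own, per probe set and in log2, where a difference of 1 is a doubling. Levels of different genes are not compared, because probe sets differ in their response.

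PTPN11, the gene of SHP2, was at 7.96 and 8.44 on the CTRL miR arrays, at 6.04 and 5.71 under SHP2 miR1 and at 6.90 and 7.28 under SHP2 miR2. All 4 SHP2 miR arrays lay below both controls, and the averaged difference was -1.72 (adjusted p = 0.00184 by limma). Separation of all 4 from control, above or below, was found for 26.1% of all genes. Replicates correlated across genes at 0.985 to 0.986. Of the markers of basal mammary epithelium, 10 of 10 measured lay above the 40th percentile of all probe sets (4.76), the level below which a probe set is called dim here, and keratin KRT5 was at 10.97 and 11.10 in control. Their summed level was 13.1 to 13.2 (log2) under CTRL miR, 13.1 to 13.2 under SHP2 miR1 and 13.2 to 13.3 under SHP2 miR2. Dim markers numbered 2 of 9 for fibroblasts, 5 of 9 for immune cells, 5 of 7 for endothelium and 4 of 7 for hepatocytes. The dim ones included PTPRC, CDH5 and ALB, at 3.25, 4.24 and 3.68 in control. These are single examples, and the markers not counted as dim lay above 4.76. Among single markers, picked out after their values were seen, keratin KRT14 rose by 1.10 and laminin LAMB3 fell by 1.07. The other lists had lower TEK (-1.38) and CSF1R (-0.75) and higher PECAM1 (0.60) and CYP3A4 (0.72). The largest averaged difference among the immune markers was a rise of 0.96, which did not pass an adjusted p of 0.05. The median of the immune markers was 0.12. The summed immune level was 10.0 to 10.1 under CTRL miR, 9.58 to 9.78 under SHP2 miR1 and 9.85 to 10.1 under SHP2 miR2. Hepatocyte markers summed to 8.22 to 8.36, 8.70 to 8.71 and 8.41 to 8.77 in that order, fibroblast markers to 9.27 to 9.32, 9.18 to 9.23 and 9.33 to 9.43, and endothelial markers to 7.91 to 7.91, 7.66 to 7.69 and 7.73 to 7.79. The part of these levels in the results was not tested.

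Promoter sequences are shown for 3 of the genes, to let the receptor's binding core be seen in place. They run 5′ to 3′ on the gene's strand, from 250 bases before the transcription start to 50 bases after it, and were taken from RefSeq (GRCh38.p14). Capitals mark GCGTG or, where the core lies on the opposite strand, CACGC. The windows are chr7:17298402-17298701 on the plus strand for AHR, chr15:74725479-74725778 on the minus strand for CYP1A1 and chr3:156674340-156674639 on the plus strand for the first of 3 starts of TIPARP.
AHR: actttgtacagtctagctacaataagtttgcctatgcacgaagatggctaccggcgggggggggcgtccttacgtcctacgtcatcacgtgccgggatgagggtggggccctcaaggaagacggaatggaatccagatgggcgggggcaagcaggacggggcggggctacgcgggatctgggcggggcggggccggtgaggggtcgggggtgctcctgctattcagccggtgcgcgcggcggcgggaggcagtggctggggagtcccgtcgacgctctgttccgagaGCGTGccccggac
CYP1A1: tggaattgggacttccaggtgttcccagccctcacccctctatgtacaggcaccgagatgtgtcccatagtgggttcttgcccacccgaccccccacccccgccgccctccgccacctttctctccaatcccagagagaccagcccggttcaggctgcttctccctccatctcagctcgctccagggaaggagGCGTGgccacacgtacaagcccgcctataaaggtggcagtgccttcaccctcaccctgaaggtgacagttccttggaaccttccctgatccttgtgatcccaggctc
TIPARP: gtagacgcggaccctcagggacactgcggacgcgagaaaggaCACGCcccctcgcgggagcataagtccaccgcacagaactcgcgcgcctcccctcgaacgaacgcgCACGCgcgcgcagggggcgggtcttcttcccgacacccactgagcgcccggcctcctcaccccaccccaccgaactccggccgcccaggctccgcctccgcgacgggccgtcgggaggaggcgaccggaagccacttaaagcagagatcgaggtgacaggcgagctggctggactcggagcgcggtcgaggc
In the AHR window the core lay 38 bases after the start, in the gene's own orientation. In the CYP1A1 window it began 57 bases before the start, also in the gene's orientation. The TIPARP window held 2 cores on the opposite strand, beginning 208 and 142 bases before the start.

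Of the 7 genes, 6 were in the promoter table with 9 windows, and 5 windows of 4 genes (AHR, AHRR, CYP1A1 and TIPARP) held the core on either strand. Among all 35116 promoter windows 36.5% held it. The longer form TNGCGTG, which contains the core, was in 5.51% of all windows and in 1 window of the set, that of AHRR, beginning 32 bases before the start. The windows of ARNT and CYP1A2 held neither form. CYP1B1 was not among the sequences used here. A match describes these letters in this window, and elements further upstream were not searched.

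The receptor gene itself rose in the average of both SHP2 miRs and with SHP2 miR1. AHR, on chromosome 7, was at 5.16 and 5.49 on the CTRL miR arrays, at 6.82 and 6.88 under SHP2 miR1 and at 5.88 and 5.995 under SHP2 miR2. All 4 SHP2 miR arrays lay above both controls, and the 3 groups did not overlap, with SHP2 miR1 highest. Arrays of both SHP2 miRs lay clear of control, above or below, for 26.1% of all genes. Single groups did not overlap for 40.5% to 59.4% of all genes, depending on the pair compared. Group means of AHR were 5.33 ± 0.24, 6.85 ± 0.04 and 5.94 ± 0.08 (SD, n = 2 each). In the average AHR rose by 1.07 (SE 0.14, 2.09-fold, limma adjusted p = 0.00462). With SHP2 miR1 it rose by 1.52 (SE 0.16, 2.88-fold, adjusted p = 0.0012). For SHP2 miR2 it was 0.61 (SE 0.16, 1.52-fold), which did not pass the threshold of 0.05 (adjusted p = 0.201, 95% interval 0.24 to 0.98).

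In these bulk cultures, fewer cells of a type and less RNA per cell cannot be told apart. The average for AHR rested in part on control replicate 1. Without that array it was 0.90 with an adjusted p of 0.0565, while without any other single array the adjusted p lay between 0.0115 and 0.0302. The difference for SHP2 miR1 passed with any array left out, between 1.36 and 1.69 (adjusted p up to 0.0157). AHR was lower with SHP2 miR2 than with SHP2 miR1 by 0.92 (95% interval of the difference -1.29 to -0.55), which did not pass over all genes (adjusted p = 0.0665). With dim genes left out that difference passed (adjusted p = 0.0418), as it did with a mean-variance trend in the prior (adjusted p = 0.0157).

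ARNT, the partner that AHR needs to bind DNA, showed no difference past the threshold. On chromosome 1, it was at 8.54 and 8.55 on the CTRL miR arrays, at 8.38 and 8.50 under SHP2 miR1 and at 8.77 and 8.47 under SHP2 miR2. The SHP2 miR2 arrays lay on either side of the controls. The averaged difference was -0.01 (SE 0.14, 95% interval -0.33 to 0.30, adjusted p = 0.977). Against control, SHP2 miR1 gave -0.10 and SHP2 miR2 gave 0.08. The sign of the average turned to 0.06 under quantile normalization.

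**Figure D1:**
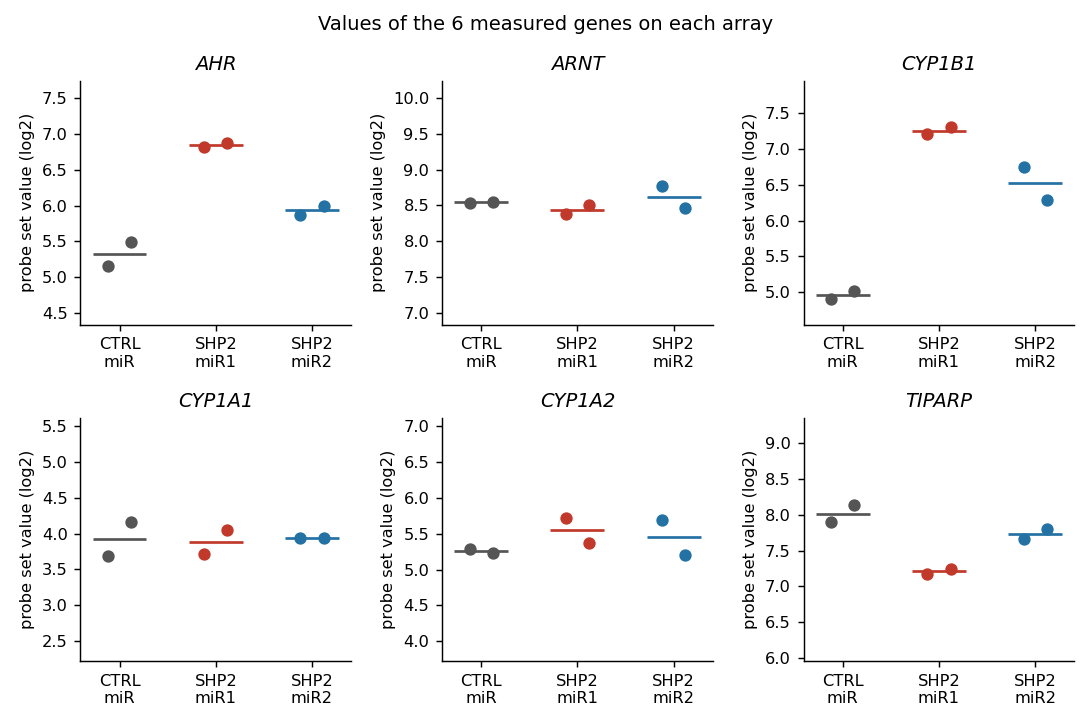
Probe set values (log2) of the 6 measured genes on each of the 6 arrays, 1 panel per gene, with all vertical axes spanning the same range of log2 units. Points are arrays and lines are group means (n = 2). AHR and CYP1B1 are higher on all 4 SHP2 miR arrays than on both controls and TIPARP is lower, while the points of CYP1A1 overlap in all groups. Of all genes, 26.1% have all 4 SHP2 miR arrays above or all 4 below both controls.

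CYP1B1, on chromosome 2, was at 4.91 and 5.02 on the CTRL miR arrays, at 7.20 and 7.31 under SHP2 miR1 and at 6.75 and 6.29 under SHP2 miR2. The 3 groups did not overlap, and their order was that of AHR. The share of all genes with this order was not counted. The rise of CYP1B1 chose the set, so the shared order is a description only. The lowest SHP2 miR array was SHP2 miR2 replicate 2. Means were 4.96 ± 0.08, 7.26 ± 0.08 and 6.52 ± 0.32 (SD, n = 2 each), so the spread was widest with SHP2 miR2. The averaged difference, which chose the set, was 1.93 (SE 0.16, 3.80-fold), and the differences were 2.29 (4.90-fold) under SHP2 miR1 and 1.56 (2.94-fold) under SHP2 miR2. By size it was number 15 of 18377 genes in the average. Leaving out single arrays gave averages from 1.81 to 2.04.

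CYP1B1 was chosen by its rise over control and not by the comparison between the SHP2 miRs. That comparison uses the same SHP2 miR arrays, so it is not fully independent of the choice. There CYP1B1 was lower with SHP2 miR2 by 0.74 (95% interval of the difference -1.14 to -0.33), which did not pass (limma adjusted p = 0.125). Without SHP2 miR2 replicate 2 the difference was -0.51, and without SHP2 miR2 replicate 1 it was -0.96.

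CYP1A1 and CYP1A2 lie side by side on chromosome 15 and are the receptor targets most used as readouts of its activity. CYP1A1 was at 3.69 and 4.17 on the CTRL miR arrays, at 3.72 and 4.05 under SHP2 miR1 and at 3.94 and 3.94 under SHP2 miR2. Every SHP2 miR array lay between the controls. The averaged difference was -0.01 (SE 0.17, 95% interval -0.40 to 0.37, adjusted p = 0.976). Its probe set was dim, at percentile 24.7 of all probe sets, so a small change at this level may not be measurable. The sign for SHP2 miR2 turned from 0.01 to -0.03 under quantile normalization.

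CYP1A2 was at 5.29 and 5.23 on the CTRL miR arrays, at 5.73 and 5.37 under SHP2 miR1 and at 5.69 and 5.21 under SHP2 miR2. In each SHP2 miR group replicate 1 lay above the controls and replicate 2 near them, so SHP2 miR2 overlapped control. The averaged difference was 0.24 (SE 0.17, 95% interval -0.15 to 0.63, adjusted p = 0.47).

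TIPARP, on chromosome 3, went the other way from CYP1B1. It was at 7.90 and 8.14 on the CTRL miR arrays, at 7.18 and 7.24 under SHP2 miR1 and at 7.67 and 7.80 under SHP2 miR2. All 4 SHP2 miR arrays lay below both controls, with SHP2 miR1 lowest. Such a separation from control, above or below, was found for 26.1% of all genes. With SHP2 miR1 it fell by 0.81 (SE 0.16, 1.75-fold, limma adjusted p = 0.0172). For SHP2 miR2 it was -0.28 (SE 0.16, 95% interval -0.63 to 0.07, adjusted p = 0.559). The average of -0.54 (SE 0.14, 1.46-fold) did not pass (adjusted p = 0.0598), but did with dim genes left out (0.0354) or a mean-variance trend (0.0083). The call for SHP2 miR1 was lost without control replicate 2 (-0.69, adjusted p = 0.14), without SHP2 miR1 replicate 1 (-0.78, 0.0944) and without SHP2 miR1 replicate 2 (-0.84, 0.0734). TIPARP differed between the SHP2 miRs by 0.53 (95% interval 0.17 to 0.88, adjusted p = 0.158).

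**Figure D2:**
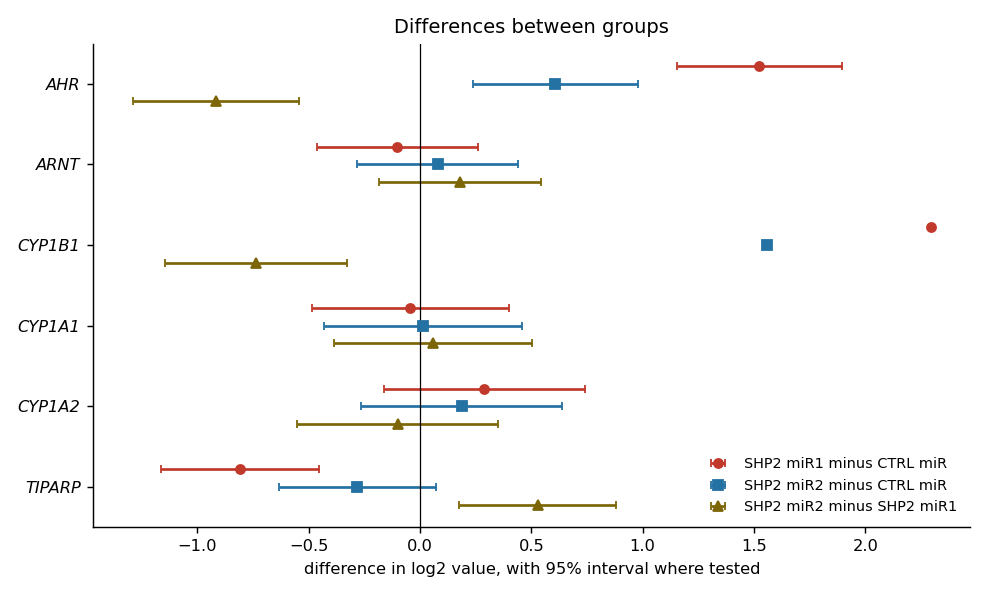
Differences in log2 value between groups for the 6 measured genes, with 95% intervals of the limma fit over all 6 arrays. CYP1B1 has no interval against control, since that difference chose the set. Intervals are not adjusted for the number of genes, and AHR did not pass with SHP2 miR2 (limma adjusted p = 0.201). The intervals of AHR lie above 0 against control with both SHP2 miRs, TIPARP lies below 0 with an interval that reaches 0.07 for SHP2 miR2, and the intervals of ARNT, CYP1A1 and CYP1A2 include 0 in all 3 comparisons shown.

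Counted together without CYP1B1, 1 of 5 tested genes of the set passed in the average, AHR, against 4.2% of all genes (1.53% higher and 2.67% lower). An unadjusted p under 0.05 was reached by 2 of the 5, AHR and TIPARP, against 20.9% of all genes. With SHP2 miR1, 2 of 5 passed, AHR higher and TIPARP lower, against 8.6% of all genes (2.66% higher and 5.94% lower), and 2 of 5 had an unadjusted p under 0.05 against 28.1%. With SHP2 miR2, 0 of 5 passed in limma against 0.37% (0.19% higher and 0.18% lower), and 1 of 5, AHR, had an unadjusted p under 0.05 against 11% of all genes. Between the SHP2 miRs, 0 of 6 passed against 0.19% (0.152% higher and 0.0381% lower), and 3 of 6 (AHR, CYP1B1 and TIPARP) had an unadjusted p under 0.05 against 17.7%. CYP1B1 is counted there, although its choice used the same SHP2 miR arrays.

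CYP1B1 was also left out of the counts of genes whose arrays did not overlap with control. Both SHP2 miRs lay clear of control for 2 of the other 5 genes, AHR and TIPARP, as for 26.1% of all genes. SHP2 miR1 alone lay clear of control for 4 of 5, all but CYP1A1, as for 59.4% of all genes. SHP2 miR2 alone did so for 2 of 5, against 40.5%. Between the SHP2 miRs, where CYP1B1 counts, the arrays did not overlap for 3 of 6, against 51.7%. The median difference of the 5 genes in the average was -0.01, beside 0.02 for all genes. Both SHP2 miR comparisons share the control arrays, so their values are given side by side and not as support for each other.

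Neighbouring genes on the same chromosomes were read for each locus. RMDN2 and the noncoding CYP1B1-AS1, the measured genes on either side of CYP1B1, had averaged differences of 0.15 (adjusted p = 0.602) and -0.22 (adjusted p = 0.455). Both probe sets were dim, with group means of 4.08 to 4.26 and 3.20 to 3.49, so a change there may not be measurable. The probe sets of AGR3 and LEKR1, given below, were dim too. Around AHR, AGR3 had -0.08 and SNX13 -0.36, and around ARNT, CTSK had 0.37 and SETDB1 -0.08, none of which passed. EDC3 and CSK beside the CYP1A pair had 0.05 and 0.11, and SDHA and EXOC3 beside AHRR had 0.12 and 0.30, none past the threshold. Near TIPARP, SSR3, a subunit of the translocon-associated complex of the endoplasmic reticulum, had group means of 8.59 (CTRL miR), 7.82 (SHP2 miR1) and 8.41 (SHP2 miR2). SSR3 fell by 0.76 with SHP2 miR1 (SE 0.14, adjusted p = 0.0159), a call lost without control replicate 2 or either SHP2 miR1 array (adjusted p up to 0.126). LEKR1, on the other side of TIPARP, had 0.25 with SHP2 miR1 (adjusted p = 0.32).

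Other genes that AHR is known to induce moved in both directions. Of 27 measured, 12 of them dim, 3 rose and 1 fell in the average (14.8%, against 4.2% of all genes), and the list median was 0.01. This list was chosen with earlier results of these data known, so its share is a description only. ALDH3A1, an aldehyde dehydrogenase that is a classic target of the receptor, was at 5.82 and 5.66 on the CTRL miR arrays, at 7.44 and 7.34 under SHP2 miR1 and at 6.54 and 6.62 under SHP2 miR2. Its 3 groups did not overlap and stood in the order of AHR. The share of all genes with this order was not counted, and single groups did not overlap for 40.5% to 59.4% of all genes. ALDH3A1 rose by 1.25 in the average (SE 0.13, adjusted p = 0.00144) and by 1.65 with SHP2 miR1, with 0.84 for SHP2 miR2 (adjusted p = 0.0609). It passed with any array left out.

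The amino acid transporter gene SLC7A5, which also carries AHR ligands of the tryptophan pathway, rose by 0.92 (SE 0.12, adjusted p = 0.00469). The exchange factor gene VAV3, whose probe set was dim, rose by 0.97 (SE 0.17, adjusted p = 0.017). Without control replicate 1 or 2, SLC7A5 missed the threshold at 0.0516 or 0.0743 and VAV3 at 0.103 or 0.149. The EGF-family ligand EREG fell by 1.38 (SE 0.13, adjusted p = 0.00106) and passed with any array left out. NQO1, a quinone reductase shared by AHR and NRF2 and named here after its value was seen, had 0.07 (adjusted p = 0.826). With SHP2 miR1 alone 3 of the 27 rose and 1 fell (all genes 8.6%). With SHP2 miR2 alone 0 passed in limma (all genes 0.37%), and 9 had an unadjusted p under 0.05 (all genes 11%).

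**Figure D3:**
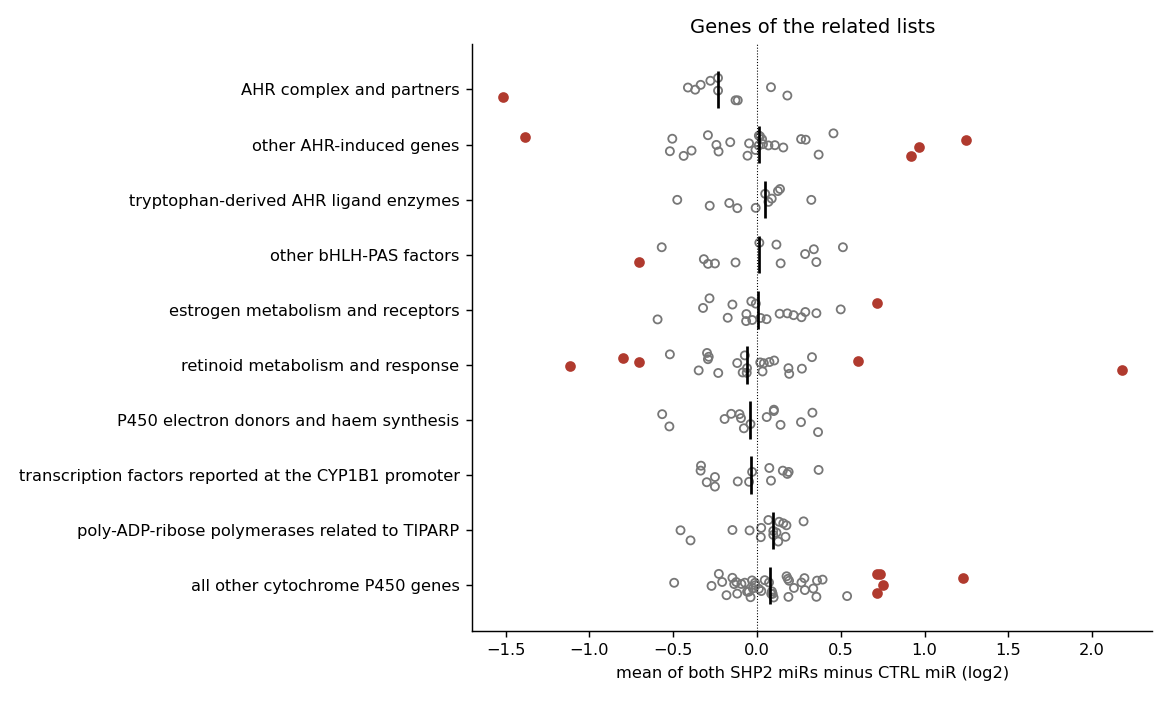
Averaged difference of both SHP2 miRs from control (log2) for each measured gene of the lists related to AHR and the CYP1 enzymes. Filled points passed an adjusted p of 0.05 over all genes, open points did not, and bars are list medians. Filled points lie on both sides of 0 among the AHR-induced genes (3 higher and 1 lower) and on the higher side only among the other cytochrome P450 genes (5).

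Genes of the receptor's complex and its cofactors had 1 of 11 lower and 0 higher (all genes 2.67% and 1.53%), with a median of -0.23. The one that fell was NRIP1, a nuclear receptor corepressor that also binds AHR, at 7.12 and 7.55 on the CTRL miR arrays, at 5.80 and 4.73 under SHP2 miR1 and at 6.35 and 6.41 under SHP2 miR2. Its averaged difference was -1.51 (SE 0.26, adjusted p = 0.0152), and the SHP2 miR1 arrays differed from each other by more than 1 unit. NRIP1 missed the threshold without either control or SHP2 miR2 replicate 1 (adjusted p up to 0.233). The chaperone genes HSP90AA1, HSP90AB1 and PTGES3, named after their values were seen, had -0.37, -0.11 and -0.28, none past the threshold.

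Enzymes that make AHR ligands from tryptophan had 0 of 11 past the threshold in limma (all genes 4.2%), 0 with an unadjusted p under 0.05 (all genes 20.9%) and a median of 0.05. Of the 11, 5 were dim. The members of smallest p were KYAT1 at 0.32 and AADAT, whose probe set was dim, at -0.48. Of 13 other bHLH-PAS factors, BMAL2, a clock factor that like ARNT pairs with other members of the family, fell by 0.70 (SE 0.15, adjusted p = 0.0353). It was the 1 of 13 that passed, and 0 rose (all genes 2.67% lower and 1.53% higher). BMAL2 missed the threshold without any 1 of the arrays except SHP2 miR2 replicate 2 (adjusted p up to 0.247). The list median was 0.01.

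Among the 47 cytochrome P450 genes measured, CYP1B1 had the largest difference in the average. That difference chose the set, so its rank is a description only. Of the 44 outside family 1, 24 of them dim, 5 rose and 0 fell (11.4%, against 4.2% of all genes), with a median of 0.08. The family was read because CYP1B1 rises, with earlier results of these data known, so this share is a description only. CYP4B1, which hydroxylates fatty acids and activates some protoxins, was at 4.597 and 4.35 on the CTRL miR arrays, at 6.18 and 6.33 under SHP2 miR1 and at 4.96 and 5.34 under SHP2 miR2. CYP4B1 rose by 1.23 (SE 0.16, adjusted p = 0.00376), and its 3 groups did not overlap. How many of all genes had 3 separate groups was not counted. CYP39A1, an oxysterol hydroxylase, rose by 0.75, CYP4F12 by 0.73, CYP4X1 by 0.71 and CYP3A4, the main drug-oxidising enzyme of liver, by 0.72. The probe sets of CYP4F12 and CYP3A4 were dim, and each has close paralogs that could share its probes.

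Support among these P450 calls was uneven. CYP4B1 missed the threshold without control replicate 2 (adjusted p = 0.0808). CYP39A1 and CYP4F12 missed it without either control, at up to 0.0991 and 0.0973, and CYP4X1 without either control, SHP2 miR1 replicate 1 or either SHP2 miR2 array, at up to 0.114. CYP3A4 missed it whichever array was left out, with 0.306 the highest, and under quantile normalization at 0.054. With SHP2 miR1 alone 5 rose and 1 fell, the last being CYP20A1, named after its value was seen (all genes 8.6%). With SHP2 miR2 alone 0 passed in limma (all genes 0.37%), and 7 had an unadjusted p under 0.05 (all genes 11%).

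CYP1 activity depends on electrons from POR and on haem. The list read here covered electron donors of P450 enzymes in general, not of CYP1 alone, and haem synthesis. Of its 15 genes, 0 passed in limma in the average (all genes 4.2%). An unadjusted p under 0.05 was reached by 4 (all genes 20.9%), and the median was -0.04. ALAS1, the rate-limiting enzyme of haem synthesis, had -0.52 (adjusted p = 0.0535) and cytochrome b5 gene CYB5A had 0.36 (adjusted p = 0.15). With SHP2 miR1 alone 2 fell (all genes 5.94% lower), named after their values were seen, ALAS1 by 0.71 (adjusted p = 0.0204) and the ferredoxin gene FDX1 by 0.96 (adjusted p = 0.0439).

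Retinoid genes were read because CYP1B1 can oxidise retinol. Of 25 measured, 8 of them dim, 2 rose and 3 fell in the average (20%, against 4.2% of all genes), with a median of -0.06. The list was chosen with earlier results of these data known, so its share is a description only. ADH1B, an alcohol dehydrogenase that also accepts retinol, rose by 2.18 (SE 0.16, adjusted p = 0.000248), and the transglutaminase gene TGM2, known as induced by retinoic acid, fell by 1.12 (SE 0.13, adjusted p = 0.00247). Both passed with any array left out. DHRS3, a retinal reductase, and STRA6, the receptor for retinol-binding protein, fell by 0.71 and 0.80, and missed the threshold without either control at up to 0.133 and 0.127. DHRS3 also missed it without SHP2 miR1 replicate 2, and STRA6 without replicate 1 of either SHP2 miR. PLAAT4, named after its value was seen, rose by 0.61 (adjusted p = 0.0434).

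Estrogen metabolism genes, 7 of them dim, had CYP3A4 as their only passing member of 20 (5%, all genes 4.2%), with a median of 0.01. Transcription factors reported at the CYP1B1 promoter had 0 of 14 past the threshold in limma (all genes 4.2%), 1 with an unadjusted p under 0.05 (all genes 20.9%) and a median of -0.04, with -0.30 for CTNNB1 and -0.33 for CREB1 as the members of smallest p. Relatives of TIPARP among the poly-ADP-ribose polymerases had 0 of 16 past the threshold in limma (all genes 4.2%), 2 with an unadjusted p under 0.05 (all genes 20.9%) and a median of 0.10. PARP4 and PARP2 had -0.46 and -0.40, with adjusted p-values of 0.104 and 0.132.

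Genes were also grouped by the binding motif in any of their promoter windows. Of 14210 genes with a window, 203 rose and 400 fell in the average (4.24%), and the median difference was 0.01. Of the 7280 with at least 1 GCGTG, 90 rose and 205 fell (4.05%), with a median of -0.02. Among the 6930 with no GCGTG, 113 rose and 195 fell (4.44%), with a median of 0.03, so more genes fell than rose there too. Of the 61 with 2 or more TNGCGTG, 1 rose and 2 fell (4.92%), with a median of -0.03. These were TAP1, a peptide transporter of antigen presentation, at 0.89, the dynein light chain gene DYNLL1 at -0.66 and the glycogen phosphorylase gene PYGB at -0.56. TAP1 missed the threshold without either control (adjusted p up to 0.151). DYNLL1 and PYGB missed it whichever array was left out, at 0.0632 to 0.162 and 0.087 to 0.214, and PYGB also with array weights (0.0517).

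The genes whose profile lay nearest to that of CYP1B1 were found from log2 values centred on each gene's mean over the 6 arrays. The 5 of smallest root mean square distance among 18376 other genes were SAA2, an acute-phase protein (0.13 log2 units), the complement protease C1R (0.16), PRR15L (0.18), keratin KRT16 (0.22) and the secreted glycoprotein CHI3L1 (0.23). PRR15L was at 5.26 and 5.01 on the CTRL miR arrays, at 7.03 and 7.34 under SHP2 miR1 and at 6.62 and 6.45 under SHP2 miR2. It had the same order of groups, which follows from its having been picked for nearness to CYP1B1. Of the set, AHR was number 42 in that order of likeness at 0.45, CYP1A2 number 2839, CYP1A1 number 10193, ARNT number 10257 and TIPARP number 17603. SAA2 and KRT16 have close paralogs. The 6 arrays form 3 groups, so this order mainly reflects the 3 group means. Values were not scaled, so a gene's place also depends on the size of its difference. The rise of CYP1B1 over control chose the set, so these ranks are a description only, and shared regulation was not tested.

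**Figure D4:**
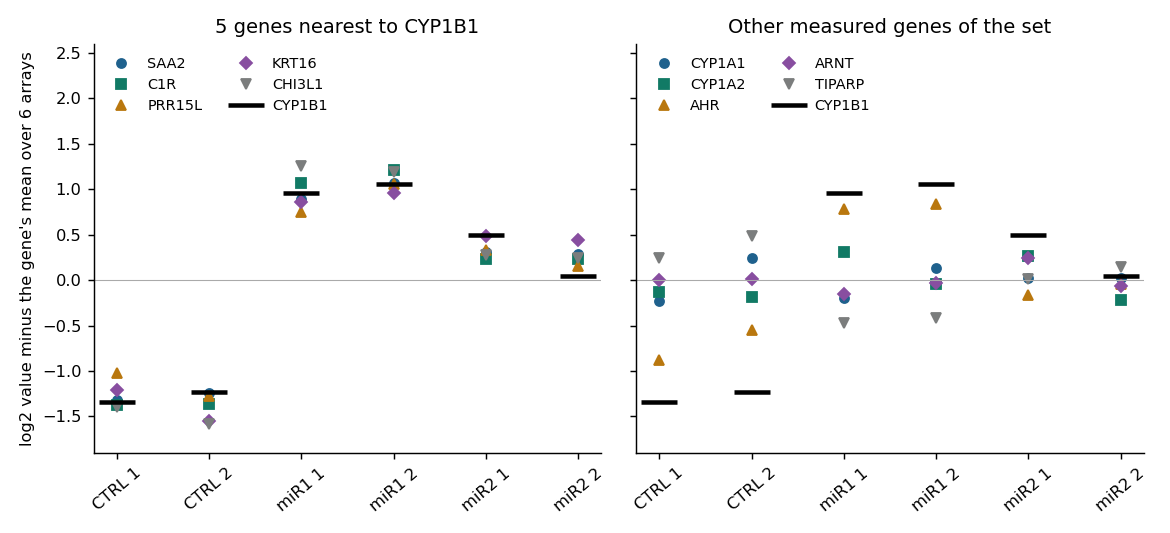
Log2 value minus the gene's mean over the 6 arrays, for CYP1B1 (bars in both panels), the 5 genes nearest to it (left) and the other measured genes of the set (right). CTRL, miR1 and miR2 on the horizontal axis stand for CTRL miR, SHP2 miR1 and SHP2 miR2 with the replicate number. The nearest genes lie at a root mean square distance of 0.13 to 0.23 from CYP1B1, AHR at 0.45, and TIPARP at 1.29 with its highest points in control. These distances are a description only.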

How the data were processed

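RNA of each sample was hybridised to 1 of 6 arrays (Affymetrix HuGene-1_0-st-v1), and groups and replicate numbers came from the sample titles. The authors deposited processed log2 values per probe set, the base being judged from the range. The authors' software was R 2.10 and oligo 1.8, per the submitters' processing notes. How background, normalization and probe summary were handled is not given in the sources used here. Medians per array were 5.23 to 5.35. Precision is limited by the number of arrays.

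Of 28869 probe sets, 19310 had 1 gene symbol, 1752 several and 7807 none. Only the first were named, with the probe set of highest mean kept per gene. Groups were compared with limma 3.58.1 in R 4.3.3 (lmFit and eBayes on all 6 arrays, two-sided, Benjamini-Hochberg over 18377 genes, threshold 0.05), checked on simulated data. Lists were described by counts and medians without a list test.

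Named genes were the set, PTPN11, up to 4 passing members of each list by smallest p (6 for P450 genes) or 2 where none passed, up to 4 passing genes with 2 or more TNGCGTG, the neighbours, and the 5 profiles nearest to CYP1B1. The genes and lists were chosen with earlier results of these data known. Alternatives were a mean-variance trend, a robust prior, quantile normalization, median centring, a filter on dim genes (the lowest 40% of probe sets by mean), averaged probe sets, a replicate block, array weights, only the groups compared, and leaving out each array.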

Additional observations from a re-analysis of the deposited data

How the results depend on the processing

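The direction of AHR, TIPARP and CYP1B1 in the 4 comparisons was kept under all alternatives run. For the average, 771 genes were called, 1793 with a mean-variance trend and 108 to 512 with an array left out. For SHP2 miR1 the count of 1581 became 2786 with the trend and 269 to 1308 with an array left out. For SHP2 miR2 the count of 68 became 367 with the trend, 154 without dim genes, 37 with the replicate block and 0 to 60 with an array left out. Between the SHP2 miRs the count of 35 became 446 with the trend, 95 without dim genes, 69 with median centring, 55 with array weights, 12 with the replicate block, 12 with only the groups compared and 0 to 15 with an array left out. Genes of the set called in the average were 2 rather than 1 with the trend and 2 without dim genes, and 0 to 1 with an array left out. With SHP2 miR1 they were 1 to 2 with an array left out, and between the SHP2 miRs 1 rather than 0 with the trend and 1 without dim genes. The replicate block changed no call of the 6 genes (AHR adjusted p = 0.00768 in the average). Replicate numbers were not taken as pairs, since the labels state no pairing. The differences between replicates correlated across genes at 0.067, 0.14 and 0.013 between groups, which cannot show whether replicates were paired.

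Signs turned for genes near 0. Under quantile normalization ARNT was at 0.0642 in the average and 0.02 with SHP2 miR1, and CYP1A1 at -0.0309 with SHP2 miR2. With an array left out ARNT lay between -0.0874 and 0.0654 in the average and between -0.0735 and 0.23 with SHP2 miR2. CYP1A1 lay between -0.25 and 0.22 in the average, -0.28 and 0.20 with SHP2 miR1, -0.22 and 0.25 with SHP2 miR2, and -0.11 and 0.22 between the SHP2 miRs. CYP1A2 lay between -0.0542 and 0.43 with SHP2 miR2 and -0.34 and 0.14 between the SHP2 miRs. For lists, the electron donor and haem list had 1 call without dim genes and 1 with median centring, and the other P450 genes had 3 without dim genes, where fewer genes were tested. With an array left out calls ranged from 0 to 1 for the receptor complex, 0 to 4 for other P450 genes, 0 to 0 for estrogen genes, 2 to 4 for AHR-induced genes, 0 to 1 for bHLH-PAS factors and 2 to 4 for retinoid genes. Genes with 2 or more of the core GCGTG were called at 3.74%, against 4.92% for TNGCGTG. Other causes of these shifts were not tested. Signal near the floor limits CYP1A1, and 2 arrays a group limit all values.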
